A study of Mus musculus with 6 samples.

Results

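The aspartate tRNA with anticodon GTC and the asparagine tRNA with anticodon GTT were followed along their length in small RNA from mouse brain. They were taken as every tRNA reference whose name begins with Asp-GTC or Asn-GTT, which gave 7 of the 190 references, namely Asp-GTC-1 to Asp-GTC-4 and Asn-GTT-1 to Asn-GTT-3. The series holds 3 libraries from wild-type brain (WT) and 3 from brain of TRMT1L knockout mice (KO), described as biological triplicates. Both groups were total brain RNA, depleted of ribosomal RNA and size-selected between 30 and 150 bp. Strain, age, sex and the kind of knockout allele were not given in the sources used here. Since these tables cover tRNAs, the genotypes rest on the labels alone. TRMT1L is a paralogue of TRMT1, the methyltransferase that makes dimethylguanosine at position 26 of many tRNAs, and the comparison asked how tRNAs differ without it.

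Both tRNAs carry queuosine, a modified guanosine, at position 34, the first base of the anticodon. The base is exchanged into the finished tRNA by the guanine transglycosylase QTRT1 with QTRT2, and queuine, its source, comes from the diet and from gut bacteria. In the aspartate tRNA the queuosine is further mannosylated, and its cytidine 38 is a target of the methyltransferase DNMT2. The asparagine tRNA carries a bulky threonylcarbamoyl group on adenosine 37 and a guanosine at 26 of the kind that TRMT1 methylates. Methyl groups on the base-pairing face, as in 1-methyladenosine 58, can leave mismatches in reads made by reverse transcription, and other modifications can end the cDNA early, so that reads start just downstream of them.

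The sequences below show where the 2 tRNAs and their copies differ. They are the reference bases as the deposited tables list them, in lower case, with position 26, the anticodon at 34 to 36 and position 58 in capitals. No genome coordinates come with these references.
Asp-GTC-1: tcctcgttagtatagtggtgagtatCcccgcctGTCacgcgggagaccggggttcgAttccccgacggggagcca
Asp-GTC-2: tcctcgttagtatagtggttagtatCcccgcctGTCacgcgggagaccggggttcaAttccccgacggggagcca
Asn-GTT-3: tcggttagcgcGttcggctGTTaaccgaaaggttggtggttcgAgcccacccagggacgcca

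Position 26 is a cytidine in the aspartate tRNA and a guanosine in the asparagine tRNA. Asp-GTC-1 and Asp-GTC-2 were listed at 75 positions and differ at 2 of them, canonical positions 20a and 57, the second of which is the neighbour of adenosine 58. Asp-GTC-4 differs from Asp-GTC-1 at 1 of 70 shared positions, position 67, and the 24 listed positions of Asp-GTC-3 are the same as those of Asp-GTC-1. Asn-GTT-1 and Asn-GTT-2 are the same over their 27 shared positions, and Asn-GTT-1 differs from Asn-GTT-3 at 1 of 48, position 67. The numbering follows the anticodon, the 2 guanosines at 18 and 19 and the stems, in which all 21 base pairs of Asp-GTC-1 and all 10 that could be seen in Asn-GTT-3 matched. No pair of copies had the same coverage in all 6 libraries at any position, so each copy was counted, but reads of near-identical copies are not independent of each other.

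The libraries held between 6151209 and 8797395 base calls on tRNA references, and each KO library was deeper than each WT library. A position was listed only with at least 30 reads, and coverage did not exceed 8032 reads. WT replicate 2 stood apart from the other 5 libraries on these tRNAs. It alone listed 48 positions of the 7 references, while KO replicate 1 alone listed 2 and the other libraries none. Over the other references KO replicate 1 alone listed 450 positions, WT replicate 2 310, KO replicate 3 186 and KO replicate 2 149, so such positions are common beyond these tRNAs. Among such positions with at least 100 reads, 105 were in WT replicate 2 and 13 in KO replicate 1, over all references. The other libraries had 0. Of the 105, 34 lay on these 7 references. Values without WT replicate 2 are given beside the results it moved most. Ranges on leaving out each library are given for single measures in the closing section.

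Coverage along the molecule differed in shape between the 2 tRNAs. In Asp-GTC-1 the coverage at position 1 was 558, 493 and 754 reads in WT replicates 1 to 3 and 839, 587 and 1075 reads in KO replicates 1 to 3, and at A58 it was 494, 1479 and 365 reads in WT and 461, 497 and 648 reads in KO. Together, the reads covered the aspartate tRNA from its first base to its CCA end. Asn-GTT-3 was not listed before position 16 in any library, and at A58 it had 955, 776 and 760 reads in WT and 873, 818 and 1023 reads in KO. Positions 17 to 21 of Asn-GTT-3 were listed in the 3 KO libraries, with 68 to 99 reads, and in no WT library.

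**Figure D1:**
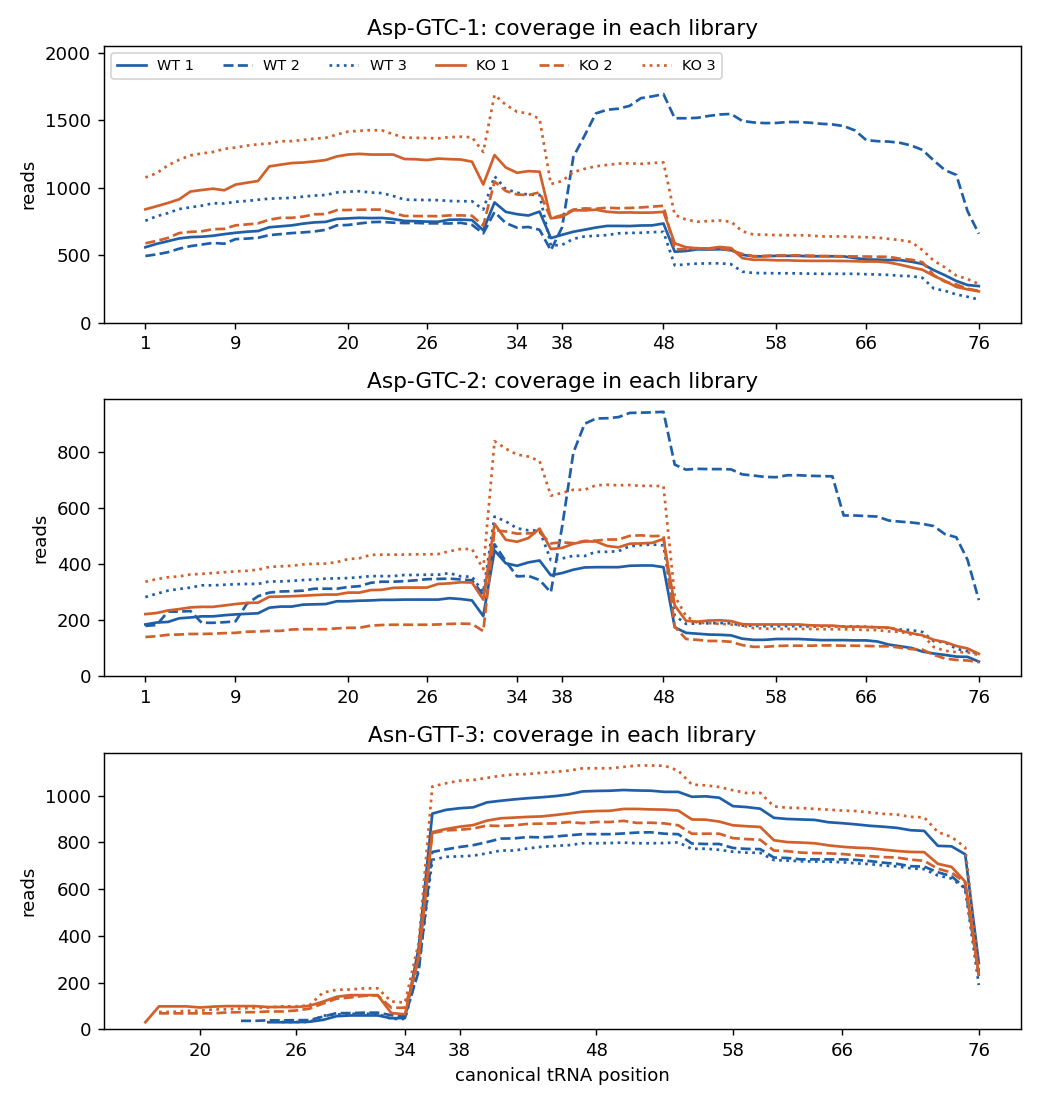
Reads covering each position (vertical axis, linear) of Asp-GTC-1, Asp-GTC-2 and Asn-GTT-3 against canonical tRNA position, 1 line per library, WT in blue and KO in orange. In Asn-GTT-3 all 6 lines climb between position 34 and position 36, and in the 2 aspartate copies WT 2 is above the other libraries at 39 and at 58.

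The log2 ratio of the mean coverage before the anticodon to that after it was taken over positions listed in all 6 libraries. For the asparagine tRNA it was -2.12, -1.93 and -1.78 in WT and -1.61, -1.28 and -1.30 in KO, as a mean over 3 copies. The positions used began at 29 in Asn-GTT-1 and Asn-GTT-2 and at 25 in Asn-GTT-3, so the whole 5′ side was not compared. At position 32 Asn-GTT-1 had 41, 47 and 38 reads in WT and Asn-GTT-2 had 40, 48 and 38. With counts this alike, the 3 copies are not independent. In the mean over copies, coverage before the anticodon was lower than after it in every library, and the groups did not overlap. The KO mean of -1.40 ± 0.18 (SD, n = 3) lay 0.54 above the WT mean of -1.94 ± 0.18 (SD, n = 3), with an exact two-sided permutation p of 0.1, the smallest that 3 libraries against 3 can give. The greater depth of the KO libraries moves with this difference, and its part in it was not tested. For the aspartate tRNA the ratio was 0.41, -1.13 and 0.80 in WT and 0.63, 0.13 and 0.65 in KO, over 2 copies. The difference of 0.44 (exact permutation p = 0.7) turned to -0.14 without WT replicate 2.

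At guanosine 34 itself almost every read called the reference base, which does not tell whether the base was queuosine. Asp-GTC-1 had 1 mismatch among 803 calls, 1 among 703 and 1 among 962 in WT, and 2 among 1110, 2 among 949 and 0 among 1562 in KO. Asp-GTC-2 had 0, 0 and 1 mismatches in WT and 1, 0 and 0 in KO, among 356 to 792 calls, and Asp-GTC-4 had 1, 0 and 1 in WT and 2, 1 and 0 in KO, among 316 to 824. Averaged over the 3 copies, the mismatch was 0.111% in WT and 0.134% in KO (exact two-sided permutation p = 0.9). The highest upper 95% Wilson bound of any copy and library was 1.47%, in Asp-GTC-4 of WT replicate 1. Wilson bounds cover counting error only. Deletions of G34 were 0 in all 3 copies and 6 libraries.

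G34 of the asparagine tRNA was covered by few reads. Asn-GTT-3 had 48, 55 and 44 calls in WT and 64, 92 and 114 in KO, all of the reference base. With 0 mismatches, these depths allow shares of up to 6.82% in WT replicate 3 and 2.63% in KO replicate 3, taking 3 reads as the limit. Asn-GTT-1 and Asn-GTT-2 had 38 to 99 calls each and 0 mismatches. Mismatch at G34 of the asparagine tRNA was thus not detected, within limits of several percent, and its 3 copies did not reach the minimum of 100 reads in each library for a test.

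The other queuosine tRNAs of the nucleus could be compared at position 34 in 2 references, both of histidine tRNA, while His-GTG-1 was not listed there. His-GTG-2 had 783, 873 and 1230 reads there in WT and 847, 977 and 1042 in KO, with 1 mismatch in all, in KO replicate 3. His-GTG-3 had 32 to 78 reads and 0 mismatches. None of the 5 tyrosine references was listed across its anticodon. At the depth of His-GTG-3, as of the asparagine copies, a share of a few percent could not have been detected.

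Read starts marked the anticodon of the asparagine tRNA. Asn-GTT-3 had 48, 55 and 44 reads at G34 but 923, 759 and 725 at position 36 in WT, and 64, 92 and 114 against 844, 840 and 1039 in KO. At position 35, 86.2%, 77.8% and 83.1% of the covering reads started there in WT and 79.5%, 69.1% and 69.1% in KO. At position 36 the shares were 61.9%, 67.3% and 64% in WT and 63.03%, 64.5% and 64.5% in KO. Reads starting at these 2 bases made up 93.7% ± 0.83 (SD, n = 3) of the coverage at 36 in WT and 90.2% ± 1.95 (SD, n = 3) in KO. Positions 35 and 36, the last bases of the anticodon, were thus where most reads of this copy began, in all 6 libraries. Why reads began there was not tested.

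The mean share starting at position 35 was 82.4% in WT and 72.6% in KO, and WT replicate 2 lay below KO replicate 1. The difference did not pass the test across all sites (quasi-binomial fit moderated by limma, Benjamini-Hochberg adjusted p = 0.619). At position 36 the group means were 64.4% in WT and 64.01% in KO (adjusted p = 0.989 in the same limma fit). The coverage that remained at G34 was 5.07%, 7.05% and 5.95% of that at position 38 in WT and 7.38%, 10.8% and 10.7% in KO. The groups did not overlap, with an exact permutation p of 0.1, and 0.6 after Benjamini-Hochberg adjustment over the 18 such quantities computed, which were chosen after the values had been seen. The other copies had smaller steps. In Asn-GTT-1, 22.7% ± 11.5 (SD, n = 3) of reads started at position 35 in WT and 14.6% ± 8.53 (SD, n = 3) in KO, and at position 36 48.4% ± 6.08 and 47.2% ± 9.76. In Asn-GTT-2 the starts at position 36 were 11.4% ± 2.80 and 9.54% ± 3.35. Asn-GTT-2 was covered by 42 to 111 reads at positions 35 and 36.

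**Figure D2:**
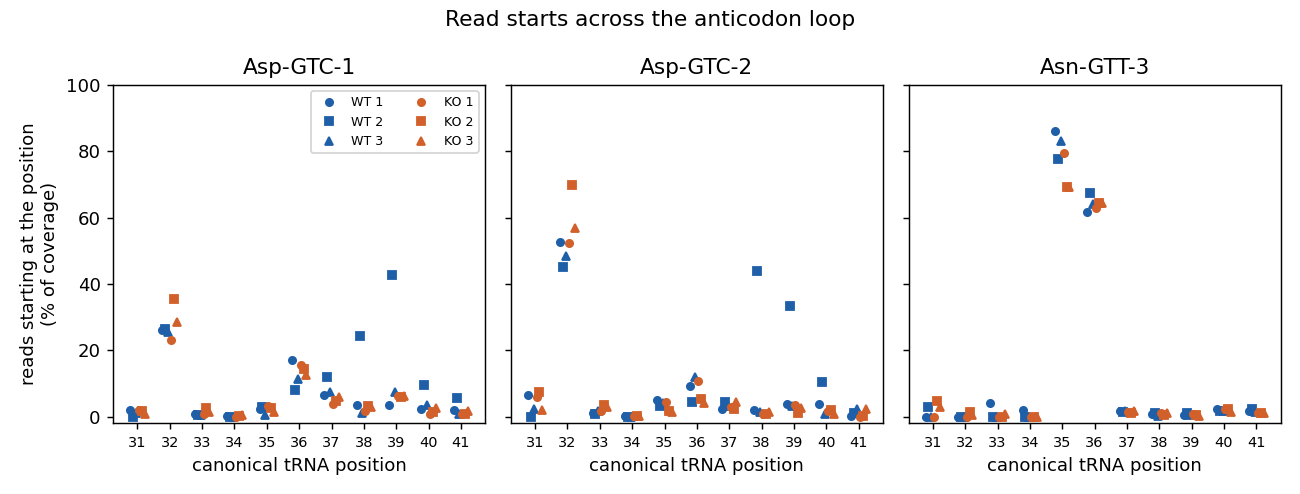
Reads starting at each position from 31 to 41, as a percentage of the coverage there (vertical axis), in Asp-GTC-1, Asp-GTC-2 and Asn-GTT-3, with 1 point per library, WT in blue and KO in orange. Starts at 35 and 36 stand at 61.9% to 86.2% in Asn-GTT-3, starts at 32 are the highest of the aspartate copies in the libraries other than WT 2, and WT 2 alone is high at 38 and 39.

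In the aspartate tRNA the starts fell elsewhere. At position 32 of Asp-GTC-1, 26.3%, 26.4% and 25.6% of reads started in WT and 23.1%, 35.4% and 28.6% in KO, and the KO values lay on both sides of the WT values. In Asp-GTC-2 the shares at position 32 were 52.6%, 45.2% and 48.6% in WT and 52.4%, 69.9% and 56.9% in KO, with means of 48.8% and 59.7% (limma, adjusted p = 0.619). At position 34 the share was at most 0.576% in Asp-GTC-1 and 0.379% in Asp-GTC-2. At position 36 it was 12.2% ± 4.62 (SD, n = 3) in WT and 14.1% ± 1.52 (SD, n = 3) in KO in Asp-GTC-1, and 8.56% ± 3.91 and 6.79% ± 3.52 in Asp-GTC-2. Asp-GTC-4 had 0 starts at positions 32 to 35 in all 6 libraries, although its listed sequence there is that of Asp-GTC-1.

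Starts at positions 35 and 36, as a share of the coverage at 36, were higher in Asn-GTT-3 than in Asp-GTC-1 in 6 of 6 libraries, by 76.6 points on average (range 72.3 to 81.9). The coverage at 34 relative to 38 was higher in Asp-GTC-1 than in Asn-GTT-3 in 6 of 6 libraries, by 125.5 points on average. Each difference had an exact two-sided permutation p of 0.0312, the smallest that 6 libraries allow, and 0.0312 after Benjamini-Hochberg adjustment over 4 such comparisons. These 4 comparisons between members were chosen after the values had been seen. The 2 tRNAs differ at many bases and modifications besides position 34, so which of them sets the difference cannot be told apart here.

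The coverage of Asp-GTC-1 also had 2 downward steps. At position 37 it was 76.2%, 77.9% and 60.3% of that at 36 in WT and 69.1%, 80% and 67.99% in KO. At 49 it was 71.5%, 89.4% and 63.1% of that at 48 in WT and 71.6%, 62.8% and 67.2% in KO. In Asp-GTC-2 the share at 49 was 44.7%, 80% and 46.3% in WT and 51.4%, 35.1% and 42.1% in KO. At both steps the groups overlapped in both copies, and WT replicate 2 had the smallest step at 49. Cytidine 38, the DNMT2 site, had 1 mismatch in Asp-GTC-1, in WT replicate 3, and 0 in Asp-GTC-2. This does not tell whether the cytidine was methylated.

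Over all references 1042 positions could be tested for read starts, and 4 of them were called at an adjusted p under 0.05 (0.384%). Of 62 tested positions of the aspartate and asparagine tRNAs 0 were called by the limma fit, and 9 had an unadjusted p under 0.05, against 7.39% of all tested positions. That count was 2 of 61 positions without WT replicate 2, 2 of 58 without KO replicate 2, 4 of 61 without KO replicate 3, and 7 to 10 on leaving out each of the other 3 libraries. The groups did not overlap at 9 of the 62 (14.5%), against 14.2% of all tested positions, so the share is near the background. Among these was position 50 of Asp-GTC-2, with 0.36% of reads starting there in WT and 3.48% in KO (adjusted p = 0.567, limma). Another was position 37 of Asp-GTC-1, with 8.68% in WT and 4.76% in KO (adjusted p = 0.619, limma). By library, position 37 had 6.71%, 11.96% and 7.37% in WT and 3.76%, 4.66% and 5.85% in KO, so WT replicate 2 raised the WT mean.

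Guanosine 26, the base that TRMT1 methylates in other tRNAs, was read in Asn-GTT-3 only, and thinly. In WT, 6 of 30, 7 of 36 and 21 of 30 calls were mismatched, which is 20%, 19.4% and 70%. In KO, 68 of 82, 55 of 74 and 50 of 82 were mismatched, which is 82.9%, 74.3% and 60.98%. WT replicates 1 and 2 were low, WT replicate 3 was above KO replicate 3, and the groups overlapped. The means were 36.5% ± 29.03 (SD, n = 3) in WT and 72.7% ± 11.1 (SD, n = 3) in KO, and the difference of 36.3 points had an exact two-sided permutation p of 0.2.

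The 95% Wilson interval was 9.51% to 37.3% in WT replicate 1 and 52.1% to 83.3% in WT replicate 3. Most mismatches at G26 were calls of T, between 76.2% and 100% of them by library. Deletions of the same base were 0 of 30, 3 of 38 and 1 of 31 reads in WT and 13 of 95, 6 of 76 and 16 of 98 in KO. Counted together with the mismatches they gave means of 38.9% in WT and 76.3% in KO, with the same p of 0.2. Without WT replicate 3 the difference in mismatch was 53.02 points, and without WT replicate 2 it was 27.7 points. The site did not reach 100 reads in each library and was not in the fit across sites, and it was described after its values had been seen.

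The aspartate tRNA has a cytidine at 26. Asp-GTC-1 had 2, 20 and 6 mismatches there in WT and 32, 9 and 0 in KO, among 735 to 1367 reads. The means were 1.22% in WT and 1.27% in KO (limma adjusted p = 1). Asp-GTC-2 had 88 of 346 calls mismatched at 26 in WT replicate 2 and 0 in the other 5 libraries. Mismatch at position 26 thus stood at a few percent at most in Asp-GTC-1 and between 19.4% and 82.9% in Asn-GTT-3, in different bases.

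**Figure D3:**
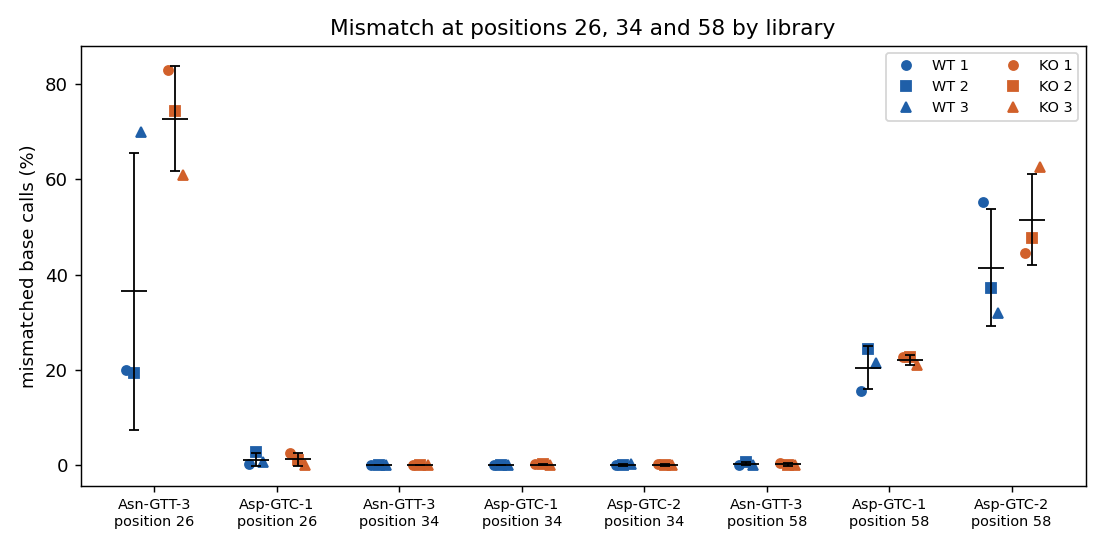
Mismatched base calls in percent (vertical axis) at positions 26, 34 and 58 of named copies, 1 point per library, WT in blue and KO in orange, with black bars for mean ± SD (n = 3). G26 of Asn-GTT-3 ranges from 19.4% to 82.9%, position 34 is near 0 in each copy shown, and A58 is high in the 2 aspartate copies and near 0 in Asn-GTT-3.

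Mismatch at adenosine 58 was higher in Asp-GTC-1 and Asp-GTC-2 than in Asn-GTT-3, while Asp-GTC-4, listed there in WT replicate 2 only, had 2 mismatches among 8007 calls. In Asp-GTC-1 its mismatch was 15.6%, 24.5% and 21.4% in WT and 22.8%, 22.7% and 20.99% in KO. In Asp-GTC-2 it was 55.3%, 37.1% and 32.02% in WT and 44.6%, 47.7% and 62.5% in KO. In Asn-GTT-3 it was 1, 5 and 1 mismatches in WT and 4, 0 and 1 in KO, among 760 to 1023 calls. Calls of T made up at least 98.8% of the mismatches in both aspartate copies. The groups overlapped in each copy, with adjusted p-values of 1 in Asp-GTC-1 and 0.553 in Asp-GTC-2 in the limma fit, and Asn-GTT-3 was below the rate of 1% needed for that fit.

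Asp-GTC-1 exceeded Asn-GTT-3 at A58 in 6 of 6 libraries, by 21.1 points on average (range 15.5 to 23.8). Asp-GTC-2 exceeded Asp-GTC-1 in 6 of 6 libraries, by 25.2 points on average (range 10.7 to 41.5). Both had an exact two-sided permutation p of 0.0312 (0.0312 adjusted over the 4 comparisons). The copies of aspartate tRNA differ at the base before A58, and how reads were shared out between them was not tested.

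Mismatches were also found at other positions of the aspartate tRNA. At guanosine 6 of Asp-GTC-1 the mismatch was 6.76%, 2.94% and 4.97% in WT and 8.15%, 6.82% and 6.15% in KO. The mean was 4.89% ± 1.91 (SD, n = 3) in WT and 7.04% ± 1.02 (SD, n = 3) in KO, the groups overlapped, and the exact permutation p was 0.2. Without WT replicate 2 the difference was 1.17 points, against 2.15 with it. Asp-GTC-4 had 4.45% in WT and 7.48% in KO (limma adjusted p = 0.553), and Asp-GTC-2 had 3.48% and 5.45% (limma adjusted p = 0.670). Asp-GTC-3 went the other way, with 3.03%, 2.94% and 3.66% in WT and 0%, 0% and 2.47% in KO. It had only 33 to 82 reads there and was not in the fit. At adenosine 9 of Asp-GTC-1, a position methylated in aspartate tRNA, mismatches were 0 in all 3 WT libraries and 19, 7 and 0 in KO, among 618 to 1297 reads (exact permutation p = 0.4). Asp-GTC-2 had 1 mismatch at adenosine 9, in WT replicate 3. Near the 3′ end, mismatch at position 66 of Asp-GTC-2 was 3.94%, 20.6% and 10.2% in WT and 17.1%, 7.48% and 0% in KO (limma adjusted p = 0.699). At position 69 the means were 6.47% in WT and 9.64% in KO (limma adjusted p = 0.737). Both positions varied widely between libraries of the same group, and the groups overlapped. At position 50 of Asp-GTC-2, 246 of 738 calls were mismatched in WT replicate 2, 3 in KO replicate 1 and 0 in the other 4 libraries.

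Over all references 143 sites could be tested for mismatch and 0 were called (0%), 7 of them (4.9%) with an unadjusted p under 0.05. Of the 19 sites on the aspartate and asparagine tRNAs 0 were called by the limma fit, 4 had an unadjusted p under 0.05, all lower in KO and all on Asp-GTC-2, and the smallest adjusted p was 0.553. The groups overlapped at all 19, against 3.5% of all tested sites where they did not. Without WT replicate 2 only 7 sites of these tRNAs passed the filter, and 0 had an unadjusted p under 0.05. That count was also 0 without KO replicate 1 or KO replicate 2, 1 without KO replicate 3, and 8 without WT replicate 1 or WT replicate 3. For deletions 60 sites were tested over all references, with 0 called and 8 at an unadjusted p under 0.05, and none lay on these tRNAs.

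WT replicate 2 listed stretches of 2 references that the other libraries did not, which had fewer than 30 reads there. Asp-GTC-4 was listed from position 42 to 76 in this library alone, with 2469 reads at 42 and 8007 at A58, at the limit of recorded depth, while its positions 1 to 36 had 223 to 608 reads in the same library. At A58 of these reads 2 of 8007 calls were mismatched, against 24.5% at A58 of Asp-GTC-1 in the same library. Of the reads at position 66, 99.1% had a deletion. At position 70, 1739 of 7823 reads had an insertion, and 414 of 419 calls at position 72 were mismatched. Asn-GTT-1 was listed from position 62 to 75 in this library alone, with 32 to 95 reads.

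**Figure D4:**
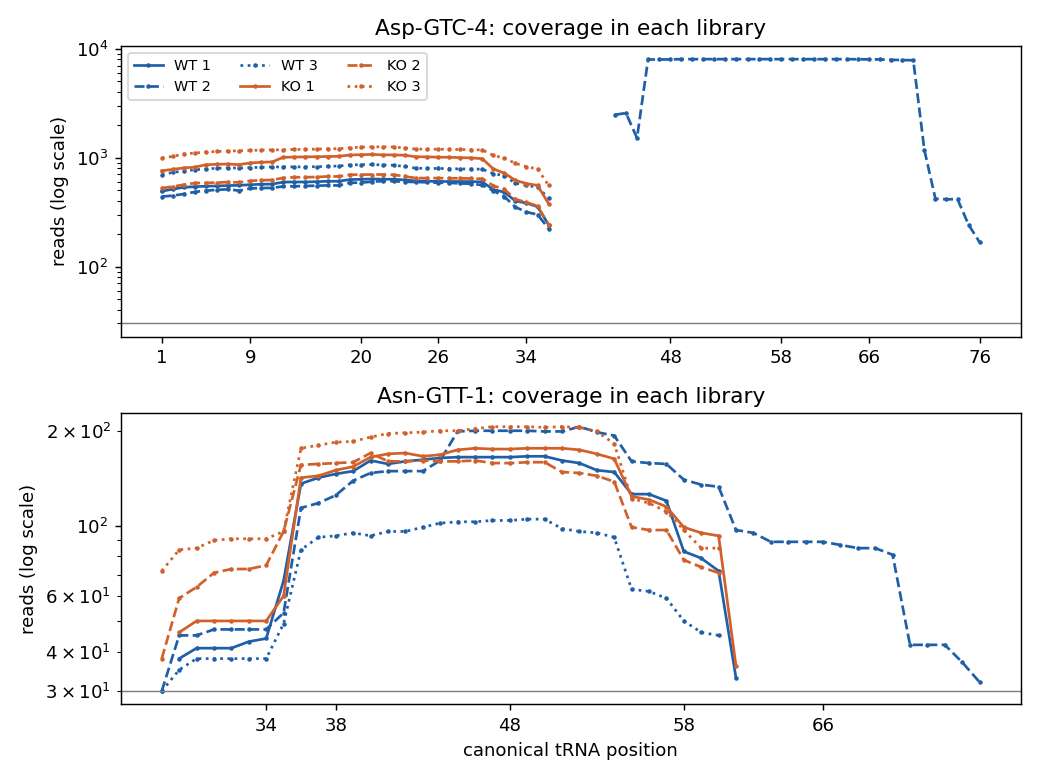
Reads covering each position (vertical axis, log scale) of Asp-GTC-4 and Asn-GTT-1 against canonical tRNA position, 1 line per library, with a grey line at the listing minimum of 30 reads. Asp-GTC-4 from 42 to 76 and Asn-GTT-1 from 62 to 75 appear in WT 2 only.

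Asp-GTC-1 and Asp-GTC-2 had more reads downstream of the anticodon in WT replicate 2. At position 48 Asp-GTC-1 had 734, 1693 and 672 reads in WT and 820, 865 and 1187 in KO. Reads starting at positions 37 to 40 made up 64.4% of the coverage at 40 in WT replicate 2 and 11.9% to 18.2% in the other 5 libraries. In Asp-GTC-2 they made up 67.5% in WT replicate 2 and 6.21% to 11.9% elsewhere.

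Mismatches of at least 5% in 1 library with at least 100 calls, and under 1% in each other library that listed the site (at least 1), were found at 9 sites of these tRNAs, all in WT replicate 2 and all listed in the other 5 libraries. Sites listed in 1 library only were not counted here. They were positions 39, 42, 48 and 50 of Asn-GTT-1 and 20, 26, 44, 45 and 64 of Asp-GTC-2. The largest was position 50 of Asn-GTT-1, with 82 of 199 calls in WT replicate 2 and 0 of 811 in the other 5 libraries together. At position 20 of Asp-GTC-2 it was 88 of 318 calls against 0 of 1505. Insertions at position 5 of Asp-GTC-2 were likewise found in 45 of 232 reads of WT replicate 2 and 0 of 1283 elsewhere. Over the other references, WT replicate 2 had 17 such mismatch sites, KO replicate 1 had 12 and the other 4 libraries had 0. Such mismatch sites were thus found in WT replicate 2 and KO replicate 1, and on the aspartate and asparagine tRNAs in WT replicate 2 only.

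The abundance of each reference was taken as its highest coverage at any position and tested with edgeR's quasi-likelihood test over 170 references, of which 32 were called at an adjusted p under 0.05 (18.8%), 21 higher (12.4%) and 11 lower (6.47%) in KO. References unlisted in a library entered at 0, while the 7 aspartate and asparagine references were listed in all 6. Of these 7, 0 were called by edgeR and 0 had an unadjusted p under 0.05. DESeq2 called 0 of the 6 for which it gave a p, with the smallest adjusted p of 0.0557 for Asn-GTT-3, and gave none for Asp-GTC-4. Over all references DESeq2 called 41 of the 185 that had an adjusted p, 24 higher and 17 lower in KO. Asn-GTT-3 had 1024, 843 and 800 reads in WT and 943, 892 and 1129 in KO, and a log2 change of -0.35 (SE 0.15, adjusted p = 0.218, edgeR), which was -0.17 without KO replicate 2. Asp-GTC-1 had 890, 1693 and 1084 reads in WT and 1250, 1045 and 1687 in KO, and a log2 change of -0.38 (SE 0.27, adjusted p = 0.419, edgeR), which was -0.08 without WT replicate 2 and -0.02 with the median coverage over positions. The raw reads do not carry the library scaling, which the fit does.

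The median log2 change was -0.35 over the 7 references and 0.036 over the 170. The lowest was that of Asp-GTC-4, at -2.12 (SE 0.96, adjusted p = 0.224, edgeR), with 636, 8007 and 864 reads in WT and 1068, 699 and 1255 in KO. Without WT replicate 2 it was -0.09 and the median of the 7 was -0.08. With the median coverage over positions in place of the highest, the change of Asp-GTC-4 was 0.07 and the median of the 7 was 0.04, so both turned in direction. In bulk RNA, fewer tRNA molecules and fewer reads obtained per molecule cannot be told apart. Under upper-quartile scaling, which moved the median of all references to -0.62 and called 18 references higher and 73 lower, 4 of the 7 were called lower, and the 2 references with a positive change, Asn-GTT-2 and Asp-GTC-3, turned negative.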

How the data were processed

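Small RNA of mouse brain was sequenced in 3 WT and 3 KO libraries, with group and replicate taken from the sample titles. The deposited files hold, for each position of each tRNA reference, raw counts of coverage, base calls, read stops, deletions and insertions, and a base quality score. GATK 3.5 is named in the submitters' processing notes; the aligner, reference set and build are not given in the sources used here. A stop was listed 1 position after the first base of its read, and starts were placed at that base; they never exceeded the coverage there, at 45022 positions.

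Sites with at least 100 reads in each library and a pooled rate of at least 1% were fitted over all references with a quasi-binomial model, moderated by limma 3.58.1 (R 4.3.3). Abundance used edgeR 4.0.16 with TMM and filterByExpr, with DESeq2 1.42.0 as an alternative. Adjusted p-values are Benjamini-Hochberg, two-sided, at 0.05. Single values were compared by exact permutation (scipy 1.17.1). The fits were tested on simulated data, with the size of the change and the spread between libraries set in advance. They recovered 91.4% of changed mismatch sites, 80% of start sites, 86.7% of deletion sites and 100% of references. False calls were 1, 7, 0 and 3 in the same order. Recovery of smaller changes, or with the spread of these libraries, was not tested. Named were all copies, positions 9, 20, 26, 32 to 38 and 58, and sites or stretches of 1 library. The members, lists and added comparisons were chosen with earlier results of these data known.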

Additional observations from a re-analysis of the deposited data

Results flagged for a closer look

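Insertions were not compared between the groups, and those of at least 5% in a KO library that exceeded every listed WT library are given here as values. At position 76 of Asn-GTT-3 they were 7.14% (18 of 252 reads) in KO replicate 3 and 5.98% (14 of 234 reads) in KO replicate 1, against 5.65%, 4.24% and 4.76% in WT, while KO replicate 2 had 2.23%, below each WT library. On Asp-GTC-3 in KO replicate 1 they were 6.41% at position 7 (5 of 78 reads) and 9.2% at position 20 (8 of 87 reads), against 0 in WT, and 26.7% at position 24 (8 of 30 reads), which no WT library listed. Their source was not tested.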

How the results depend on the processing

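Counts of 0 called mismatch and start sites on these tRNAs held under each coverage minimum, rate minimum, test and left-out library tried. Upper-quartile normalization called 4 references instead of 0 (91 of all 170, against 32); the cause was not tested. Over all references, abundance calls were 17 with median coverage, 21 without references at the depth limit, 15 without KO replicate 2 and 16 without KO replicate 3. Start calls over all references, 4 in the first place, were 25 at a rate of at least 0.1%, 0 at 5% or without WT replicate 2, and 1 without WT replicate 1 or WT replicate 3. Deletion calls, 0 in the first place, were 1 at a minimum of 500 reads or a rate of 5%, and 2 without WT replicate 2. Leaving out each library in turn, the KO minus WT difference ranged from -0.033 to 0.089 points for mismatch at G34 of Asp-GTC, -0.14 to 0.82 for the log2 coverage ratio of Asp-GTC, 0.45 to 0.65 for that of Asn-GTT, -0.76 to 3.69 points at A58 of Asp-GTC-1, 4.63 to 17.0 points at A58 of Asp-GTC-2, 1.17 to 3.08 points at G6 of Asp-GTC-1 (lowest without WT replicate 2) and 27.7 to 53.02 points at G26 of Asn-GTT-3. The log2 change in abundance of Asn-GTT-3 ranged from -0.39 to -0.17. The sign turned at G34 without WT replicate 2 (-0.0096) or KO replicate 1 (-0.033), in the coverage ratio of Asp-GTC without WT replicate 2 (-0.14), and at A58 of Asp-GTC-1 without WT replicate 1 (-0.76). With unlisted positions counted as 29 reads, which also brought in 1 more copy (3 in all), the Asp-GTC coverage difference was 1.31. G34 of Asn-GTT had no copy with 100 reads; with a minimum of 30, the mismatch was 0 in each library. Chosen after seeing the data were 2 alternatives: without the 2 mismatch sites at which every call was mismatched, 7 rather than 4 sites had an unadjusted p under 0.05, and over the 145 references listed in all 6 libraries 33 were called, 0 of them here. Same-numbered libraries had correlations of 0.095, 0.041 and 0.09, so the numbers were not taken as pairs. With the replicate number as a block, 0 sites and 0 references of these tRNAs were called, against 4 start sites and 28 references over all. In this balanced design a block leaves each difference of means as it was (0.44 for the Asp-GTC coverage ratio, 0.54 for Asn-GTT, 0.022 points at G34 of Asp-GTC and 36.3 points at G26 of Asn-GTT-3), and the exact permutation p became 0.5, 0.25, 1 and 0.5. With 3 blocks, 0.25 is the smallest p that this permutation test can give. With the block the log2 change of Asp-GTC-4 was -1.08. Depth limits what can be seen at G26 and G34 of the asparagine tRNA. Deletions on these tRNAs were tested at 6 sites only, at a rate of at least 0.1%, with 0 called.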
